A study of Mus musculus with 10 samples.

Results

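Jarid2-knockout mouse morulae were sequenced both as single embryos and as pools, and 5 of the 10 libraries of the study were compared here: 3 libraries of 1 embryo each, labelled female (replicates 1, 3 and 4), and 2 libraries of about 20 embryos each (pools 1 and 2). Members were taken from the sample names of the deposited table. All 5 were labelled with the genotype Jarid2 knockout and the strain combination BDF1 x PWK. No sex label is attached to the pools, the labels do not describe how the knockout was made, and knockout single embryo 2 was not analysed here. The 3 wild-type single female morulae and 2 control pools of the same strain combination served as a second single-to-pool contrast. It shares no library with the knockout contrast, but deviations from the group means correlated at 0.569 between knockout and control pools of the same number, and the median absolute log2 difference was 0.129 between knockout pool 1 and control pool 1, against 0.228 between the knockout pools. Separate litters are not stated for the pools, so the spread between pools may be technical. The p-values rest on a spread fitted to pools and single embryos together. Between knockout single embryos the median absolute log2 difference was 0.299 to 0.417, wider than between the knockout pools.

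The morula is the ball of compacted cells that precedes the blastocyst, in which outer cells start to turn into trophectoderm and inner cells into the inner cell mass. Jarid2 is a cofactor of Polycomb repressive complex 2 (PRC2), whose catalytic subunit Ezh2 methylates lysine 27 of histone H3 with the help of Eed and Suz12. In female embryos the noncoding RNA Xist coats the X chromosome that is silenced, and PRC2 marks follow it there.

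Between knockout single embryos and knockout pools, edgeR called 41 of 14861 genes and DESeq2 called 355. With 3 libraries against 2, a gene that was not called was not shown to be alike in both groups. The largest differences were in RNA of the Y chromosome, present in the pools and near 0 in the single embryos. The single embryos were labelled female, so their lack of Y-linked RNA was set by the choice of embryos. A group of other genes, many of them pseudogenes, was also lower in single embryos. Levels are in CPM, which are counts divided by the library total and brought to a fixed scale. Log2 differences are single embryos minus pools, so a positive value is higher in single embryos, and a gene is called when its edgeR adjusted p is under 0.05.

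Total counts were 18015186 to 18696312 in the knockout single embryos and 41003216 to 49861963 in the knockout pools. Scaled to the smallest library of the study (14830332 counts), 17258, 18049 and 17240 genes were expected with a count in single embryos 1, 3 and 4, against 19495 and 19944 in pools 1 and 2. With 5 or more counts as the limit the numbers were 14676, 15313 and 14532 against 15227 and 15747, and single embryo 3 then lay above pool 1. An exact permutation test (two-sided) of 3 libraries against 2 cannot give a p below 0.2, which was the p of the first measure, and the second had p = 0.4.

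Jarid2 (chromosome 13, 44730774 to 44921643, GRCm38) was the targeted gene and was measured first. Knockout single embryos 1, 3 and 4 held 156.1, 318.7 and 61.3 CPM, and knockout pools 1 and 2 held 180.6 and 157.9 CPM. The groups overlapped, with single embryo 3 above both pools and single embryos 1 and 4 below both. The means were 178.7 ± 130.2 CPM (SD, n = 3) and 169.2 ± 16.0 CPM (SD, n = 2), a log2 difference of -0.03 (SE 0.51, edgeR adjusted p = 0.995), and the exact permutation test gave p = 1. The difference of the means in CPM turned negative without single embryo 3 (-60.5 CPM) or pool 2 (-1.89 CPM), and the log2 difference turned positive without single embryo 4 (0.37) or pool 1 (0.15). Every knockout library lay below all wild-type single embryos (mean 680.6 CPM) and control pools (mean 469.4 CPM). Which exons were deleted is not stated in the labels, and counts cover the whole gene, so RNA from exons outside the deletion is included.

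Among 8009 genes of at least 10 CPM, the median absolute log2 difference between 2 knockout single embryos was 0.417 for embryos 1 and 3, 0.389 for 3 and 4, and 0.299 for 1 and 4. It was 0.228 between the knockout pools. A single embryo differed from a pool by 0.317 to 0.419, with embryo 1 nearest to pool 1 and embryo 3 nearest to pool 2 (0.319). Over all such pairs, single embryos lay 0.375 from the pools (median, mean 0.371) and 0.389 from each other (median, mean 0.368). From the control pools the knockout single embryos lay 0.356 (median, mean 0.355), so by median and mean they were no nearer to the knockout pools. Single embryo 3, the highest in Jarid2, lay 0.323 from wild-type single embryo 2 and 0.372 from wild-type single embryo 3, nearer than to the other knockout single embryos. In the controls, wild-type single embryos lay 0.300 to 0.355 from each other and 0.418 to 0.673 from the control pools. These distances are a description without a test.

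The genes of the Y chromosome separated the groups, which the female label of the single embryos fixed in advance. The values below describe this and are not a test of single embryos against pools. The 9 genes of the Y-linked list, among them the translation factor gene Eif2s3y, the RNA helicase gene Ddx3y and the deubiquitinase gene Usp9y, summed to 0.167, 0 and 0.0553 CPM in single embryos 1, 3 and 4 (3, 0 and 1 counts). In knockout pools 1 and 2 the sum was 128.5 and 134.3 CPM (6409 and 5508 counts). The exact permutation p was 0.2, the smallest that this design can give. Control pools held like sums of 128.2 and 136.5 CPM, and wild-type single embryos at most 0.0674 CPM.

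Of the 8 Y-linked genes tested, 3 fell by edgeR, which called 0.262% of all genes lower. All 8 were lower at an unadjusted p under 0.05, DESeq2 called 8, and in the controls edgeR called 8. Eif2s3y had 0 counts in each knockout single embryo and 58.4 and 57.7 CPM in the pools, so it was at least 1060-fold lower, taking a floor of 3 counts over the 3 single embryos together. Ddx3y had 0 counts against 49.4 and 55.1 CPM, at least 954-fold lower, and Usp9y had 0 counts against 5.31 and 5.19 CPM. No single embryo came near a pool for these genes. Uty, a histone demethylase family gene, had 0.167, 0 and 0 CPM against 7.44 and 6.51 CPM but was not called (edgeR adjusted p = 0.0545), and neither was Kdm5d (adjusted p = 0.0767). None of the 7 X-linked partners of these genes was called, and their median log2 difference was 0.14.

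Xist RNA was 261.7, 389.8 and 178.7 CPM in the single embryos and 136.7 and 220.7 CPM in the pools. Single embryo 4 lay below pool 2, so the groups overlapped, and the log2 difference of 0.56 (SE 0.31) was not called (edgeR adjusted p = 0.655). In the controls Xist was higher in single embryos by 2.31 (adjusted p = 0.0065). The difference between the 2 contrasts was -1.75 and did not pass the test (adjusted p = 0.235). Xist overlaps Tsix on the other strand, and the sources used here do not say how strand was counted.

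The X-linked share of counts was 3.81%, 3.44% and 3.50% in the single embryos and 3.34% and 2.96% in the pools. All 3 single embryos lay above both pools, at an exact permutation p of 0.2. Female single embryos were set against pools without a sex label. For Xist and the X-linked share, sex therefore cannot be told apart from other differences between the groups. Of 483 X-linked genes tested, 163 had a log2 difference below 0, against 6801 of 13911 autosomal genes, and the medians were 0.18 and 0.02. In bulk RNA, fewer cells or embryos with a transcript and less of it per cell cannot be told apart.

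**Figure D1:**
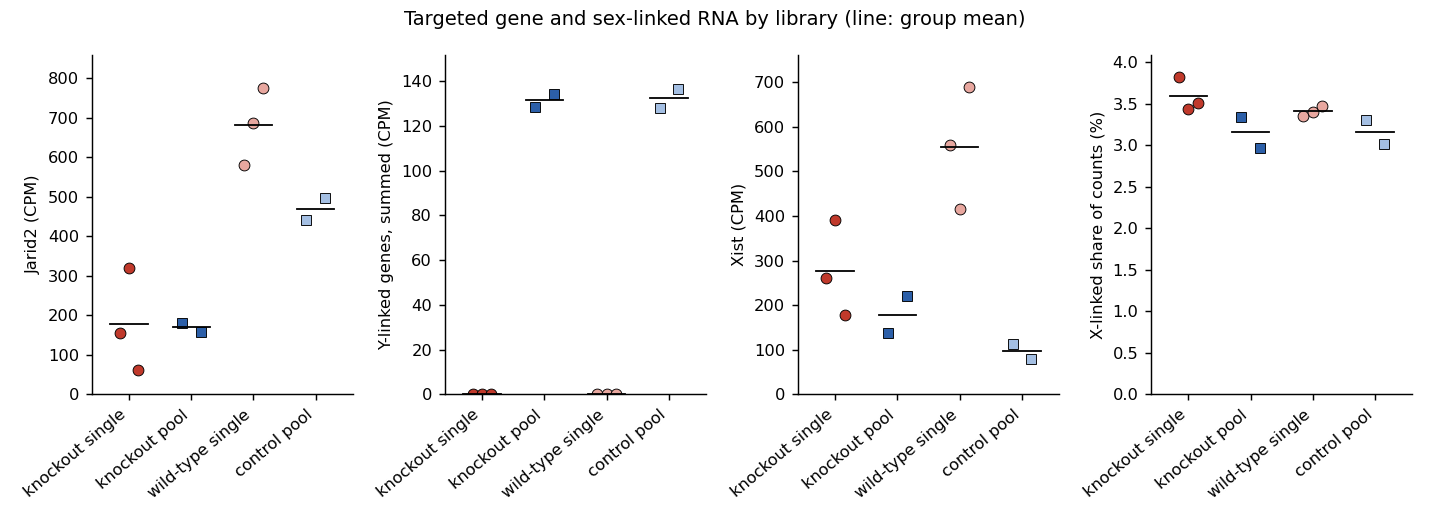
Jarid2, summed Y-linked genes and Xist in CPM, and the X-linked share of counts in percent (vertical axes), for each library of the 4 groups (horizontal axis); points are libraries and lines group means. The Y-linked sum is 128.5 and 134.3 CPM in the knockout pools and at most 0.167 CPM in the knockout single embryos, while Jarid2 overlaps between both knockout groups.

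Over all genes, edgeR tested 14861 and called 41 (0.276%), 2 higher (0.0135%) and 39 lower (0.262%) in knockout single embryos. An unadjusted p under 0.05 was met by 1382 genes (9.3%), of which 679 were higher (4.57%) and 703 lower (4.73%). None of the 41 overlapped between groups, where 15.3% of all genes tested lay wholly higher and 12.5% wholly lower. The count was 31 without single embryo 3, 12 without single embryo 4, 13 without pool 1 and 23 without pool 2, and DESeq2 called 355 genes. In the controls 1821 of 14324 genes (12.7%) were called, 786 higher (5.49%) and 1035 lower (7.23%). Without TMM scaling the control split was 1233 and 640, and without control pool 1 there were 58 calls in all.

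By annotation the 41 called genes were 21 pseudogenes, 12 protein-coding genes, 3 miRNA loci, the 3 Y-linked genes and 2 genes not matched to the RefSeq table. Here a gene counts as a pseudogene when RefSeq or GENCODE lists it as one. Processed pseudogenes are copies of messenger RNA written back into the genome, and their sequence can be so near to the parent gene that short reads fit both. Of the 38 called genes with a GENCODE transcript, 25 had at least 10% of their 75-base windows in another gene as well, against 2283 of 13706 tested genes (16.7%). The read length was also 75 bases, and the sources used here do not say how reads with several matches were counted, so the values of these genes are uncertain.

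Rpl34-ps1 (chromosome 6), a copy of the ribosomal protein gene Rpl34, had 10.2, 9.84 and 6.14 CPM in single embryos 1, 3 and 4 and 115.6 and 130.3 CPM in pools 1 and 2. It fell by 3.87 on the log2 scale (SE 0.29, edgeR adjusted p = 0.0011). Rpl34 itself had 637.7, 642.5 and 513.2 CPM against 562.3 and 639.7 CPM, and its groups overlapped (log2 -0.07). Of the 280 windows of 75 bases in Rpl34-ps1, 168 (60.0%) also occurred in Rpl34 transcripts, and every window occurred in some other GENCODE gene. Oaz1-ps (chromosome 17), a copy of the ornithine decarboxylase antizyme gene Oaz1, fell from 62.7 and 45.8 CPM in the pools to 10.7, 12.1 and 14.7 CPM in the single embryos. Oaz1 had 274.8, 274.0 and 330.8 CPM in the single embryos, above its 197.4 and 124.9 CPM in the pools, and was not called. Llph-ps2 (chromosome X), a copy of the gene Llph, fell from 80.9 and 81.0 CPM to 23.7, 20.1 and 17.5 CPM, while Llph lay at 57.7 to 74.3 CPM in all 5 libraries.

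The windows printed here were picked for their few mismatches, 0 in the first pair and 1 in the others, so they do not measure how alike the pairs are. Over all windows, 60.0% of Rpl34-ps1, 85.4% of Oaz1-ps and 95.0% of Llph-ps2 also occurred in transcripts of the parent. Each line below gives 75 bases of the sense strand from GENCODE M21 (GRCm38), 5′ to 3′, with a base in capitals where pseudogene and parent differ, and positions counted from 1 at the first base printed. The first pair is identical over the window (chr6:71124610-71124684, plus strand, and the first coding bases of Rpl34). The second pair differs at 1 base, C65G from Oaz1-ps to Oaz1 (chr17:17346006-17346080, minus strand). The third differs at T16C from Llph-ps2 to Llph (chrX:13218528-13218602, minus strand).
Rpl34-ps1: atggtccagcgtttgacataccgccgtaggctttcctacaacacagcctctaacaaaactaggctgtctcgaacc
Rpl34: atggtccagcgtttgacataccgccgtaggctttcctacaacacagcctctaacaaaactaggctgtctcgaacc
Oaz1-ps: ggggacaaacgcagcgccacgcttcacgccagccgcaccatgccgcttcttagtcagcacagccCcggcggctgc
Oaz1: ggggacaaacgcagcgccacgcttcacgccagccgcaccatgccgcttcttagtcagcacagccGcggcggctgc
Llph-ps2: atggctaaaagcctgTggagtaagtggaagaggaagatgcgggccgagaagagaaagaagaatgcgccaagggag
Llph: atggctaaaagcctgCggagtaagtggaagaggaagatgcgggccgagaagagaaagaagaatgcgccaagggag

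Across 33 pseudogenes named after a gene of the table, the pseudogene had the lower log2 difference in 23 pairs. The median was -0.83 for the pseudogenes and 0.11 for the parents, with 4 pseudogenes called, the 3 above and Nutf2-ps1. Of the 28 different parents 0 were called by edgeR, 3 had an unadjusted p under 0.05 and DESeq2 called 1. Over 307 pseudogenes tested the median was -0.42, with 195 below 0, and over the 90 with at least 50% shared windows it was -0.96. Over all genes tested it was 0.02. The control contrast gave medians of -0.44 over 286 pseudogenes and -1.28 over 84 with shared windows. Pseudogenes took 0.632%, 0.592% and 0.566% of counts in the knockout single embryos and 0.895% and 0.804% in the knockout pools. All 3 single embryos lay below both pools.

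Over the called genes with a GENCODE transcript, pseudogenes and miRNA loci among them, the median transcript length was 477 bases, against 1333 over tested genes. Among the 12608 genes that GENCODE lists as coding, edgeR called 16, in short and in long classes. They include the 3 Y-linked genes and Nutf2-ps1, which RefSeq lists as a pseudogene. By length, edgeR called 0 of 316 coding genes under 500 bases and 8 of 4352 from 500 to under 1000 bases. It called 3 of 3754 from 1000 to under 2000 bases, 0 of 2286 from 2000 to under 3000 bases, and 5 of 1900 at 3000 bases or more. The Y-linked genes Ddx3y and Usp9y are in the longest class, and Eif2s3y and Nutf2-ps1 in the class from 500 bases. Among protein-coding genes the median log2 difference was -0.17 over the 316 with transcripts under 500 bases, 0.10 from 1000 to under 2000 bases, and -0.05 at 3000 bases or more. In the controls it ran from -0.21 in the shortest class to 0.39 in the longest. The part of transcript length in the differences between gene groups was not tested.

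The control contrast, from 5 other libraries, called 37 of the 41 genes in the same direction. These are 90.2% of the knockout calls and 2.03% of the control calls. Across the 13820 genes tested in both contrasts, which are not independent replicates, the log2 differences correlated at 0.379 (Pearson). The other 4 knockout calls were the death receptor gene Fas, the cotransporter gene Slc12a2, and the predicted genes Gm8210 and Gm9769.

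**Figure D2:**
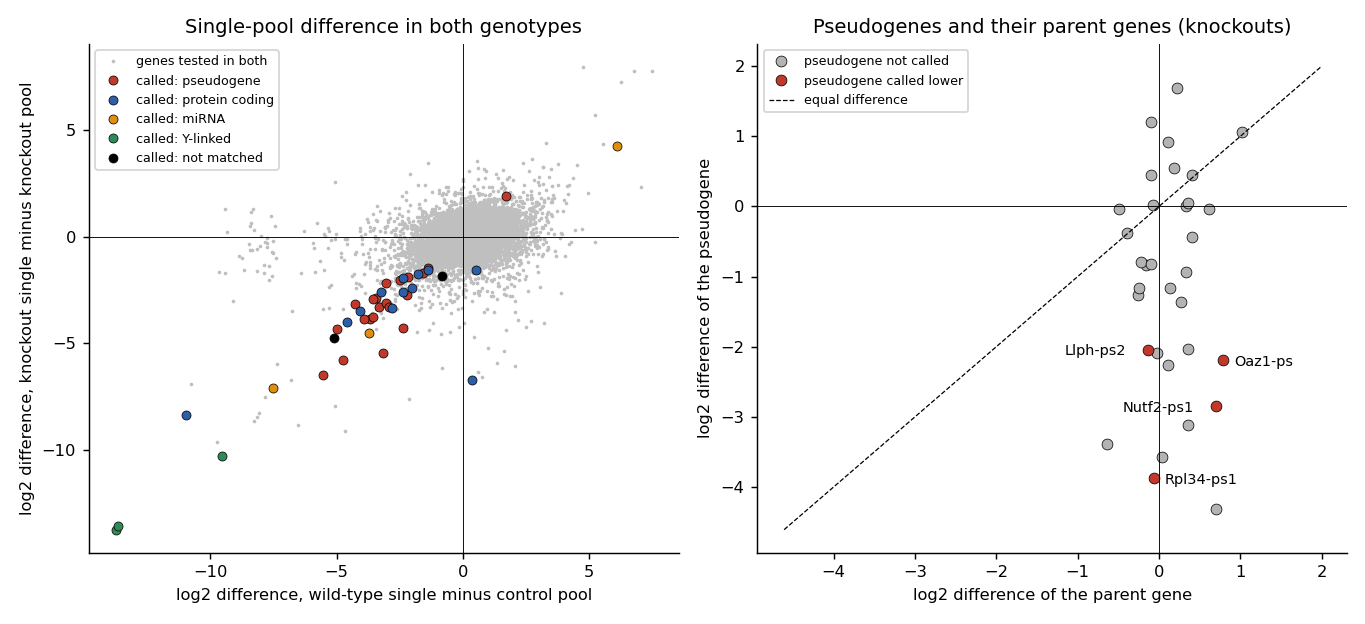
Left, the log2 difference of each gene between single embryos and pools in knockouts (vertical) and in controls (horizontal), with the 41 knockout calls coloured by class; right, the same difference for 33 pseudogenes (vertical) and their parent genes (horizontal). Most called genes lie low in both contrasts, and the 4 called pseudogenes lie at -2.04 to -3.87 while their parents lie at -0.14 to 0.79.

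The 2 genes that rose in knockout single embryos were Mir6236 and Erdr1. The miRNA locus Mir6236 (chromosome 9) had 38.0, 42.8 and 32.0 CPM in single embryos 1, 3 and 4 and 2.01 and 1.71 CPM in the pools. Its log2 difference was 4.26 (SE 0.35, edgeR adjusted p = 0.00181), and in the controls 6.09. The locus overlaps the predicted gene Gm39429, and 75-base reads of polyadenylated RNA count any transcript over the locus, not the mature miRNA. Erdr1, a pseudoautosomal gene that RefSeq lists as a transcribed pseudogene, had 312.7, 338.2 and 267.6 CPM against 82.3 and 72.8 CPM (log2 1.91, SE 0.22, adjusted p = 0.0127). For both genes every single embryo lay above both pools in both genotypes.

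The loci Mir692-2 and Mir692-3 fell instead. Mir692-2 (chromosome 4) had 0.0555, 0.107 and 0 CPM in single embryos against 8.52 and 6.95 CPM in pools, and Mir692-3 (chromosome 13) had 0.167, 0.749 and 0.277 CPM against 9.02 and 7.90 CPM. All of the 75-base windows of both loci occur in other genes. The mature sequences (RefSeq, GRCm38.p6) are shown because they make plain that both Mir692 loci encode the same miRNA, with bases 2 to 8, the seed, in capitals.
miR-6236: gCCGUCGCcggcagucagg
miR-692: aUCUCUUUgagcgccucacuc

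Among protein-coding genes, 12 outside the Y chromosome fell and 0 rose by edgeR, although over the 12608 genes that GENCODE lists as coding 620 were higher at an unadjusted p under 0.05 and DESeq2 called 159 higher. The most abundant was Serf2, which encodes a small protein that promotes amyloid aggregation. It had 286.9, 307.5 and 260.7 CPM in single embryos 1, 3 and 4 and 909.0 and 941.3 CPM in pools 1 and 2, a log2 difference of -1.76 (SE 0.17, edgeR adjusted p = 0.00679). Tmsb10, which encodes an actin-monomer-binding thymosin, had 177.3, 210.5 and 156.5 CPM against 474.0 and 544.9 CPM (-1.55, SE 0.19). Mrps33, of the small subunit of the mitochondrial ribosome, had 54.4, 45.9 and 64.2 CPM against 210.4 and 196.0 CPM (-1.95, SE 0.25). For all of them the single embryos were tightly grouped and far below the pools, and the control contrast showed the same order. Serf2 overlaps Serinc4, and its transcripts share 62.2% of their windows with another gene. The share was 19.25% for Tmsb10 and 10.3% for Mrps33, so the values of these genes are uncertain too.

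Yeats2, a subunit of a histone acetyltransferase complex with a YEATS reader domain, had 19.7, 32.8 and 23.5 CPM against 163.3 and 128.6 CPM (log2 -2.62, SE 0.26, edgeR adjusted p = 0.007). The tetratricopeptide-repeat gene Ttc41 had 19.6, 31.0 and 28.9 CPM against 132.0 and 130.9 CPM (-2.38, SE 0.25). Both genes share almost no windows with other genes, at 0.134% and 0%. Syt14, a synaptotagmin of membrane traffic, had 3.94, 2.03 and 2.05 CPM against 35.1 and 49.996 CPM (-4.02, SE 0.42). Ssh2, a phosphatase that activates cofilin, had 4.16, 4.87 and 8.36 CPM against 44.3 and 70.1 CPM (-3.35, SE 0.38). Sumo2, the small ubiquitin-like modifier, had 4.39, 2.19 and 2.66 CPM against 39.0 and 26.5 CPM (-3.47, SE 0.44). Syt14 overlaps Gm39746, Ssh2 overlaps Efcab5, and Sumo2 has near-identical copies in the genome, so these values are uncertain. All of these genes were also called lower in wild-type single embryos.

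Fas and Slc12a2 were called in the knockouts but not in the controls. Slc12a2, the sodium-potassium-chloride cotransporter NKCC1 (chromosome 18), had 41.2, 42.6 and 33.9 CPM in knockout single embryos against 114.2 and 110.3 CPM in knockout pools (log2 -1.58, SE 0.23, edgeR adjusted p = 0.0308). Its level in wild-type single embryos was 199.3, 107.8 and 99.0 CPM, all above the 71.4 and 92.0 CPM of the control pools. Fas (chromosome 19) had 0, 0.0535 and 0.111 CPM in knockout single embryos against 4.41 and 7.80 CPM in knockout pools (log2 -6.74, SE 0.93, adjusted p = 0.026). Wild-type single embryos ranged from 0 to 3.98 CPM and control pools lay at 1.49 and 1.26 CPM. The difference between the contrasts was -2.09 for Slc12a2 and -7.08 for Fas, and neither passed the test (adjusted p = 0.235 for each). Fas lost its call in 8 of 17 alternative settings and Slc12a2 in 6 of 18, with adjusted p up to 0.362 and 0.753.

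The difference between the 2 contrasts was tested over all 10 libraries and 15878 genes. By edgeR 1 gene passed (0.0063%), St6galnac4, while 2326 (14.6%) had an unadjusted p under 0.05, 1286 higher (8.1%) and 1040 lower (6.55%), and DESeq2 called 544. St6galnac4 (chromosome 2) encodes a sialyltransferase. It had 0, 0.107 and 1.05 CPM in knockout single embryos 1, 3 and 4 and 25.5 and 24.8 CPM in knockout pools, with 0, 2 and 19 counts in the single embryos. Wild-type single embryos had 125.6, 166.9 and 129.4 CPM, and control pools 23.7 and 33.7 CPM. The pools of both genotypes lay within this range of 23.7 to 33.7 CPM, while the single embryos lay below their pools in knockouts and above them in wild types. The log2 difference was -6.07 in knockouts (SE 0.98, edgeR adjusted p = 0.0595, not called) and 2.08 in controls (adjusted p = 0.0051), and the difference between them was -8.15 (SE 0.89, adjusted p = 0.00889). It was lost without wild-type single embryo 2 or 3 or without control pool 1 or 2, with an adjusted p of up to 0.148.

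Pdk3 and Tceal8 were picked among genes with a positive difference between the contrasts, and both missed the threshold (edgeR adjusted p = 0.235 for each). Their direction was therefore set by the choice. Fas, Slc12a2 and Xist had negative differences at the same adjusted p. Pdk3, an X-linked kinase that inhibits pyruvate dehydrogenase, had 15.5, 6.36 and 8.19 CPM in knockout single embryos against 1.504 and 1.85 CPM in knockout pools, and at most 0.171 CPM in wild-type single embryos. Tceal8, an X-linked gene of a transcription elongation factor-like family, had 63.4, 40.2 and 13.3 CPM against 31.9 and 36.3 CPM. Wild-type single embryos held 0.288 to 2.05 CPM of Tceal8. For Pdk3 every knockout single embryo lay above both pools, while for Tceal8 the knockout groups overlapped.

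**Figure D3:**
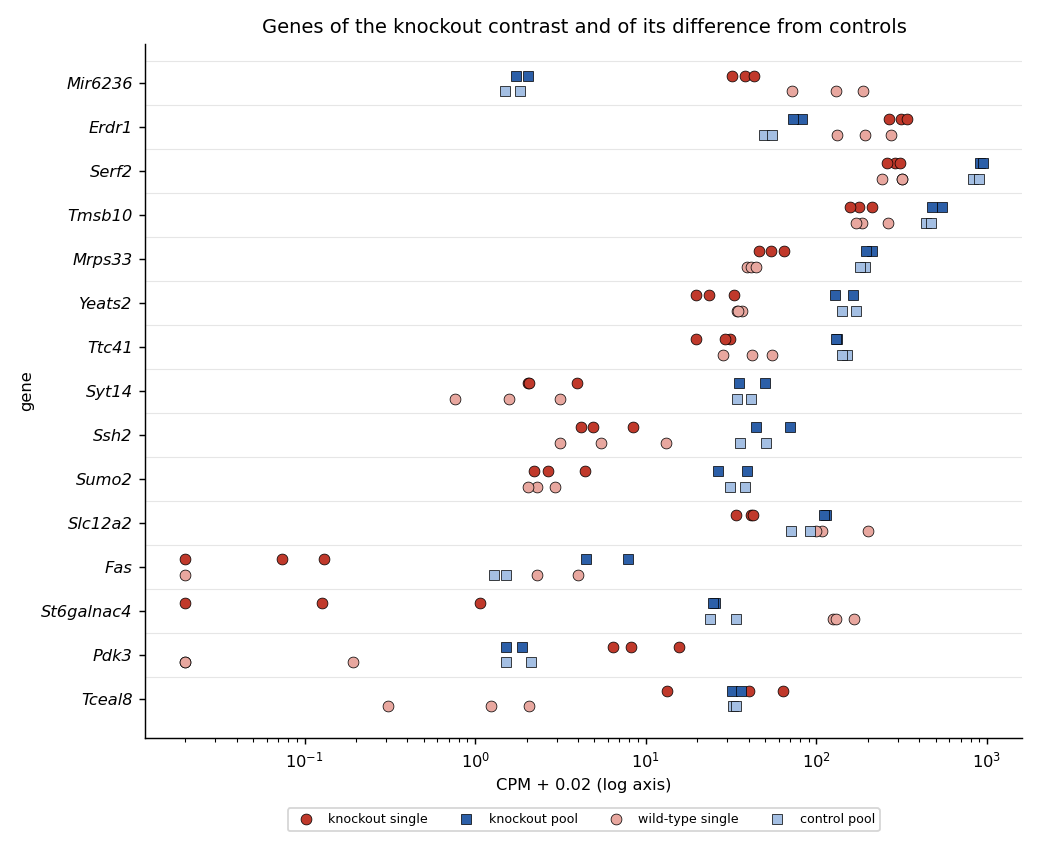
CPM on a log axis (horizontal, with 0.02 added so that 0 can be drawn) of called genes of the knockout contrast and of the 3 genes St6galnac4, Pdk3 and Tceal8 (vertical), by library; red circles are knockout single embryos, dark squares knockout pools, pale symbols the controls. From Serf2 to Sumo2 the circles lie left of the squares in both genotypes, while for Slc12a2, St6galnac4, Pdk3 and Tceal8 the dark and pale circles lie apart.

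Gene groups were described by the number of tested members that passed and by their median, beside 0.02 over all genes in knockouts and 0.10 in controls. Apart from the Y-linked genes and Fas, which stands in the list of p53 targets (33 tested, median -0.02), 0 members of the 35 lists were called by edgeR in the knockout contrast. Of the 835 tested list members off the Y chromosome, 70 lay higher and 90 lower with an unadjusted p below 0.05, and DESeq2 called 22 higher and 23 lower. Counts below are at an unadjusted p under 0.05, met by 4.57% of all genes for higher and 4.73% for lower, and are a description. Under another scaling the median of 8 lists turned sign, each within 0.08 of 0: p53 targets, primitive endoderm, apoptosis, proteasome, PRC2, H3K27me3 imprinting, DNA and H3K9 methylation, and the Jumonji list. The members named in the next paragraphs were chosen after their values were seen, unless said otherwise, and did not pass 5% in the knockout contrast.

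The 75 nuclear genes of oxidative phosphorylation, which build the complexes of the respiratory chain, had a median of -0.44, the lowest among the lists with at least 10 tested members besides the Y-linked list, with 39 lower and 5 higher, and DESeq2 called 12 lower and 1 higher. In the controls 19 of the 75 fell, 0 rose, and the median was -0.46. Cox6c, a subunit of cytochrome c oxidase, had 1309, 1332 and 1130 CPM in the single embryos and 1847 and 2362 CPM in the pools, and Ndufa12, of complex I, had 212.0, 189.8 and 225.6 against 355.9 and 400.2 CPM. These genes are short, with a median transcript length of 607 bases. The 80 cytosolic ribosomal protein genes had a median of -0.15, with 16 lower and 4 higher, and in the controls 23 fell and 2 rose. Rps25 had 587.3, 538.6 and 555.8 CPM against 1086 and 1147 CPM, while Rpl3 had 1004, 1080 and 988.5 CPM against 586.0 and 659.6 CPM, so members of this list lay on both sides. Ribosomal protein genes have many pseudogenes that can share reads.

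Cholesterol synthesis genes, which turn acetyl-CoA into sterols, lay higher in single embryos of both genotypes. Of 24 tested, 23 were above 0 in the knockouts, 9 of them past the unadjusted threshold and 0 the other way, with a median of 0.53. In the controls 10 rose and 1 fell, with a median of 0.75. Mvd, mevalonate diphosphate decarboxylase, had 61.6, 140.9 and 99.5 CPM in the single embryos against 28.0 and 39.9 CPM in the pools, and Insig1, a sterol sensor, had 104.2, 239.1 and 265.2 against 79.9 and 86.4 CPM. The median deviation (log2) of its members from their means over all 10 libraries was -0.24, 0.39 and -0.09 in embryos 1, 3 and 4 and -0.55 in each pool, so embryo 3 was the highest.

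Genes of glucose uptake, glycolysis and pyruvate use had a median of 0.41 over 28 genes, 7 higher and 3 lower, against -0.12 in the controls. Ldha, lactate dehydrogenase A, had 54.9, 34.6 and 48.3 CPM in the single embryos and 20.0 and 15.8 CPM in the pools. Mpc1, of the mitochondrial pyruvate carrier, went the other way with 59.6, 39.8 and 65.7 against 167.4 and 109.3 CPM. Proteasome subunit genes had a median of 0.02 over 31 genes, whereas in the controls 23 of 31 fell and the median was -0.95. Lysosomal genes had a median of -0.11 over 28 genes, whereas in the controls 12 of 29 rose and the median was 0.70. The difference between the contrasts was tested gene by gene, and edgeR called 0 members of these 3 lists. DESeq2 called 18 proteasome genes higher and 7 lysosomal genes lower in the knockout contrast than in the control contrast. Of the glucose list it called 1 gene higher and 2 lower. Such DESeq2 calls were not limited to these lists. Cytosolic ribosomal protein genes had 9 higher and 0 lower, and the germline list and the heat shock list 5 higher and 0 lower each. Trophectoderm genes had 2 higher and 6 lower, junction genes 1 higher and 5 lower, and primitive endoderm genes 1 higher and 4 lower.

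Stress genes had medians above 0 and no call by edgeR, while DESeq2 called 2 higher in the first list below, and 1 higher and 1 lower in each of the 2 lists that follow. The 30 genes of the integrated and unfolded-protein stress responses had a median of 0.33, with 5 higher and 0 lower. In the controls 9 rose, 2 fell and the median was 0.47. Phgdh, the first enzyme of serine synthesis, had 113.2, 72.9 and 147.4 CPM in the single embryos against 38.5 and 23.7 CPM in the pools. The 18 immediate early genes had a median of 0.62 (0.54 in the controls), with 5 higher and 1 lower. The lower gene was Fos, at 1.17, 3.10 and 3.15 CPM against 9.59 and 10.7 CPM, while Ier2 had 47.7, 66.0 and 56.3 against 23.6 and 30.6 CPM. Heat shock and chaperone genes had a median of 0.17 over 24 genes, with 3 higher and 1 lower, and apoptosis genes one of 0.00 over 22, with 0 called by either tool. In the controls 5 heat shock and chaperone genes fell, 0 rose and the median was -0.56. Of the apoptosis genes 3 fell and 0 rose there, with a median of 0.09.

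No lineage gene was called between knockout single embryos and pools by edgeR, while DESeq2 called 2 trophectoderm genes and 1 inner cell mass gene higher and 1 junction gene lower. Trophectoderm genes, which mark the outer cells that form the placenta, had a median of 0.17 over 36 genes, with 3 higher and 0 lower, and in the controls 10 rose, 1 fell and the median was 0.71. The keratin gene Krt18 had 480.9, 1100 and 805.6 CPM in the single embryos against 304.3 and 422.9 CPM in the pools. Cdx2, the trophectoderm transcription factor, was fixed for report and had a log2 difference of 0.56 (edgeR adjusted p = 0.682). Pluripotency and inner cell mass genes had a median of -0.12 over 28 genes. Of these Pou5f1, also fixed, had 250.1, 128.6 and 152.5 CPM against 71.6 and 66.5 CPM, every single embryo above both pools, but its log2 difference of 1.32 (SE 0.35) was not called (adjusted p = 0.268). Nanog had a log2 difference of 0.19.

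Primitive endoderm genes had a median of 0.03 over 20 genes in the knockouts and of 1.40 over 19 in the controls, where 9 rose and 1 fell. Gata6, which specifies that lineage, had a log2 difference of -0.17 in the knockouts. Junction, polarity and cavitation genes, needed for the blastocyst cavity, had a median of 0.08 over 35 genes, with 1 higher and 4 lower, and in the controls 10 rose, 1 fell and the median was 0.58. Hippo pathway genes had a median of -0.07 over 25 genes.

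Genes of other stages showed no call by edgeR, and DESeq2 called 4 germline genes higher. The 41 germline, meiosis and piRNA genes had a median of 0.29, with 9 higher and 4 lower, and in the controls -0.32. Rhox5, an X-linked homeobox gene, had 250.5, 551.4 and 338.3 CPM in the single embryos against 141.4 and 163.6 CPM in the pools. Mael, of the piRNA pathway, had 126.2, 108.5 and 56.9 against 45.1 and 38.1 CPM. The 14 tested genes of the 2-cell stage had a median of 0.24 and a mean of -0.07, which differ in sign, and 29 oocyte and maternal-effect genes had a median of -0.24. Replication and division genes had a median of 0.21 over 40.

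No tested subunit of PRC1 or PRC2 was called by edgeR or DESeq2. Over the 14 subunits and cofactors of PRC2 the median was -0.08, with 1 higher and 0 lower. Ezh2 had a log2 difference of -0.33 (SE 0.21, edgeR adjusted p = 0.717), Suz12 of -0.47 (SE 0.24, adjusted p = 0.627) and Eed of 0.01 (SE 0.30, adjusted p = 0.998). PRC1 subunits, only some of which bind the PRC2 mark, had a median of 0.14 over 21 genes with 0 either way. Developmental transcription factors under Polycomb had a median of -0.03 over the 19 tested of 38, of which DESeq2 called 1 higher, and X inactivation RNAs and regulators one of 0.21 over 20, with 3 higher and 1 lower. DNA methylation and H3K9 methylation genes had a median of 0.05 over 25, and Jumonji, trithorax and H3K36 genes one of 0.05 over 28, of which DESeq2 called 2 lower.

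Genes imprinted through H3K27me3, which PRC2 lays down in the oocyte and which silences the maternal copy, had a median of -0.04 over 23 genes, with 0 higher and 2 lower. In the controls 6 rose, 0 fell and the median was 0.38. Slc38a4, an amino acid transporter gene of this group, had a log2 difference of -0.19 in the knockouts and was called at 0.96 in the controls. Sfmbt2, a Polycomb-group gene whose introns hold many miRNA genes, had one of 0.61 (edgeR adjusted p = 0.698) and was called at 1.72 in the controls, and Gab1, a signalling adaptor, had -0.21. Genes imprinted through DNA methylation had a median of 0.06 over 30. Nuclear RNAs and snoRNA host genes had one of -0.34 over 15, with 0 higher and 2 lower.

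**Figure D4:**
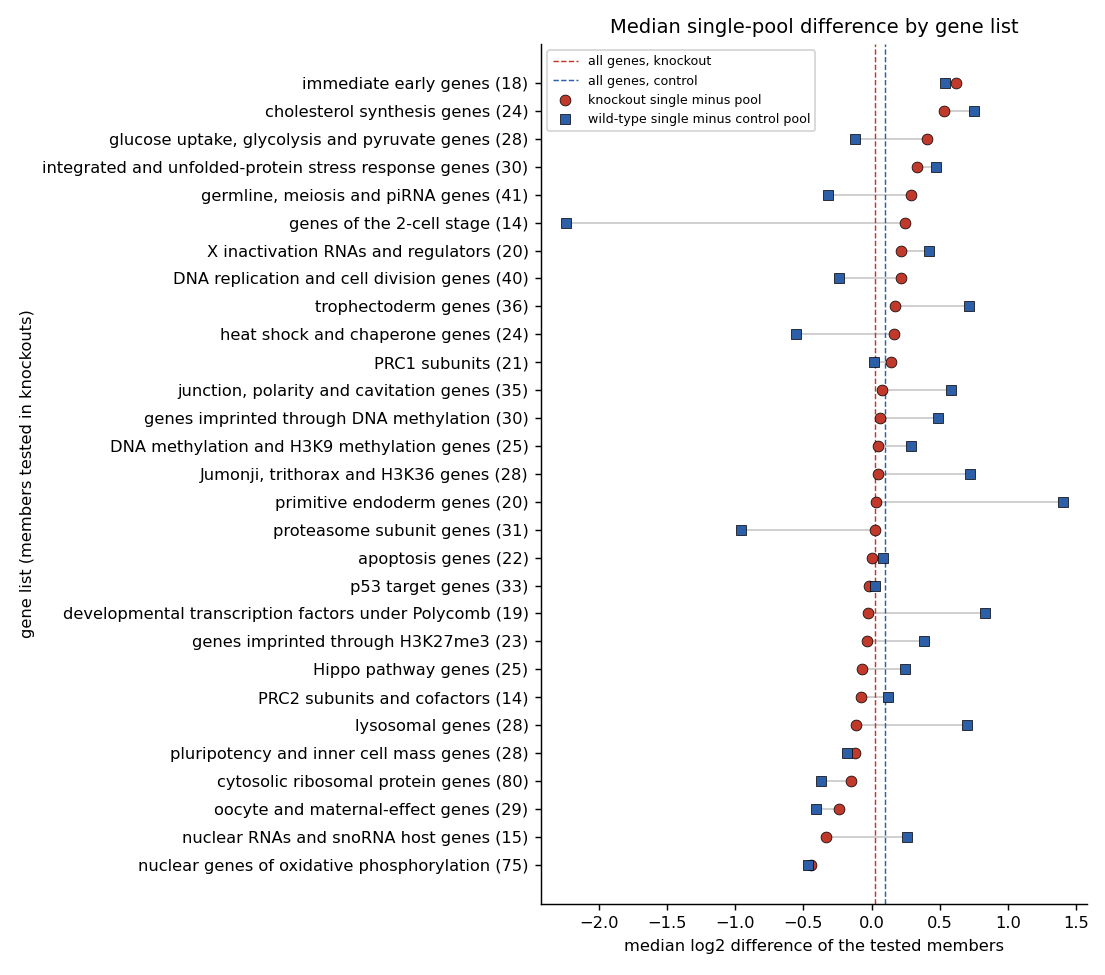
Median log2 difference of the tested members (horizontal) for each gene list with at least 10 tested members besides the Y-linked list (vertical, with the number tested); circles are knockouts, squares controls, and dashed lines the medians over all genes. In the knockouts most lists lie near 0, with oxidative phosphorylation lowest at -0.44 and immediate early genes highest at 0.62, and the controls spread from -2.24 to 1.40.

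Markers of cells other than the embryo were few. Of 20 cumulus and granulosa cell markers, 9 had 0 counts in all 5 knockout libraries, among them Has2, Ptx3, Inha, Cyp19a1 and Fshr, and 5 passed the filter. The sum over all 20, 214.3, 182.8 and 196.4 CPM in the single embryos against 257.4 and 294.9 CPM in the pools, came mostly from Serpine2 and from Nr5a2, which early embryos also use. Nr5a2 had 78.9, 88.6 and 62.8 against 125.1 and 146.7 CPM. The 16 blood markers summed to 2.05 to 4.67 CPM across the 5 libraries, with 6 at 0, among them Ptprc and S100a8. The 14 fibroblast, muscle and endothelial markers summed to 8.30 to 15.1 CPM, mostly Pecam1, with 4 at 0, among them Dcn and Lum. The 12 sperm markers summed to 4.43 to 8.99 CPM. The part of other cells in the results was not tested.

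The knockout single embryos also differed among themselves. The widest ranges among genes with a mean of at least 50 CPM are a description of genes chosen for this spread. Glrx, a glutaredoxin, ran from 22.9 CPM in embryo 1 over 127.4 in embryo 3 to 267.9 in embryo 4, against 81.7 and 49.97 CPM in the pools. The arginine methyltransferase gene Prmt1 was highest in embryo 1 (237.1, 52.0 and 91.1 CPM), as were Fbxl20 (399.2, 93.0 and 79.1 CPM) and the oocyte-specific homeobox gene Obox6 (113.1, 18.5 and 42.7 CPM), and the pools held 273.5 and 198.9 CPM of Obox6. Embryo 3 was highest in Scd2, a fatty acid desaturase (160.3, 755.0 and 356.4 CPM), in Tubb5, a beta tubulin (91.8, 380.2 and 272.7 CPM), and in Fasn, the fatty acid synthase. Apoe, an apolipoprotein, had 155.6, 543.6 and 497.8 CPM, with the pools between at 314.9 and 274.9 CPM. Id2, a helix-loop-helix factor of early trophectoderm cells, ran from 130.6 CPM in embryo 1 to 419.9 CPM in embryo 4. Obox6 has near-identical copies, so its values are uncertain.

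**Figure D5:**
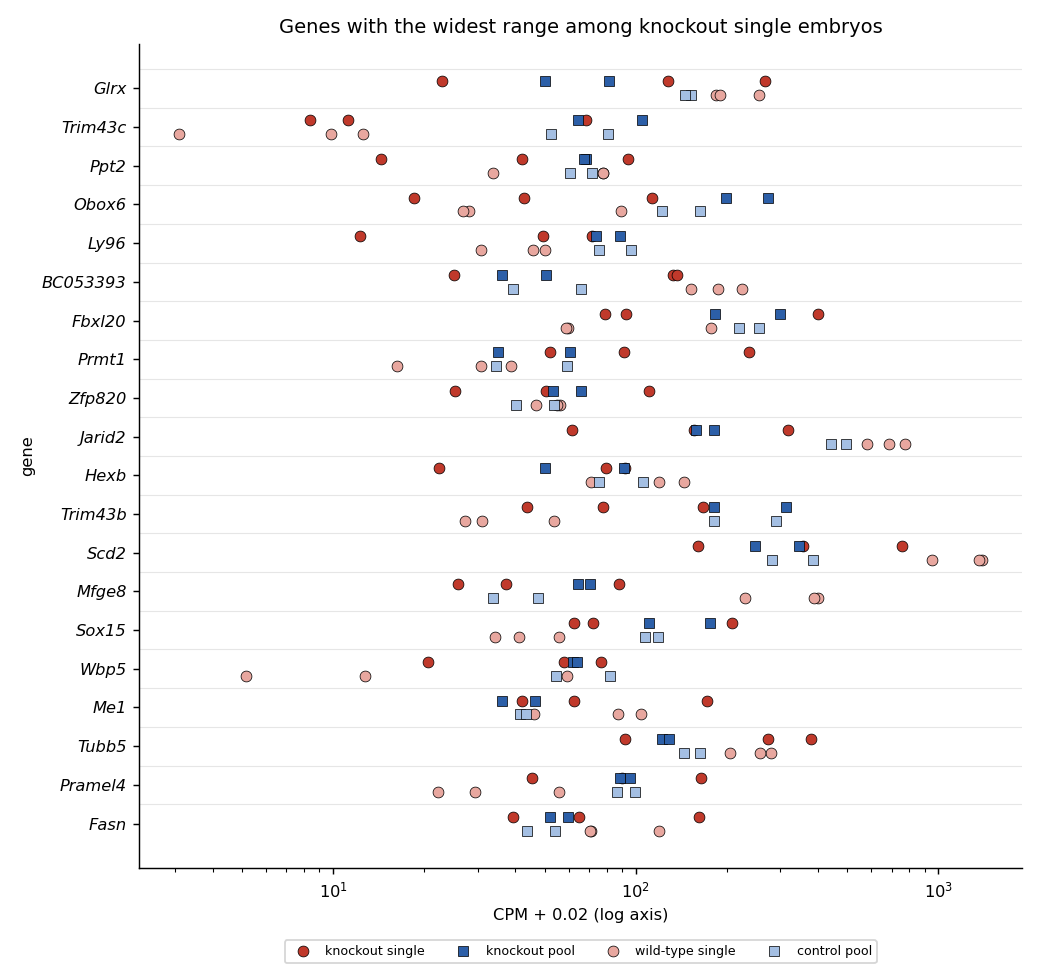
CPM on a log axis (horizontal) of the 20 genes with the widest range among the knockout single embryos and a mean of at least 50 CPM (vertical), by library, with symbols as in the plot of called genes. The order of the 3 embryos changes from gene to gene, Glrx spans 22.9 to 267.9 CPM among them, and the 2 knockout pools lie close together.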

How the data were processed

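Polyadenylated RNA was sequenced from SMART-Seq v4 and Nextera XT libraries as single-end 75-base reads on an Illumina NextSeq, per the labels' protocols. The deposited table holds whole-number read counts per gene, not normalized. fastp 0.21.0, STAR 2.7.6a, RSEM 1.3.1 and the build mm10 are named in the submitters' processing notes. The sources used here do not give the annotation, the strand setting or the handling of reads with several matches, and reads carry no molecular identifiers. Of 35976 genes, 33479 matched RefSeq (GRCm38.p6), 27 names had become dates, and 13 mitochondrial genes had 0 counts. No 2 libraries were duplicates (chi-square per gene at least 48.6).

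Tests were run on these counts with edgeR 4.0.16 in R 4.3.3 (filterByExpr, TMM, quasi-likelihood F test, Benjamini-Hochberg adjustment over all genes tested, 5%). The knockout and the control contrast were fitted on their own 5 libraries, and their difference over all 10. Fitted log2 differences carry a prior count of 0.125. Sums and shares were compared by two-sided exact permutation tests. Sequences and shared 75-base windows came from GENCODE M21, on either strand. The fits were tested on simulated data.

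The libraries, gene lists and tests were chosen with earlier results of these data known. Called genes are named if they were among the 12 largest differences per direction with a mean of at least 10 CPM, no overlap and no predicted or pseudogene name, or among 4 called members of a list, besides fixed genes. Mir692-2, Mir692-3, the pseudogenes, and genes stated as such were named after their values were seen. The 2-sided minimum p of the permutation tests is 0.2. Alternatives were other scalings, filters and tools (DESeq2 1.42.0, limma 3.58.1), thinning, autosomal genes only, a 2-fold minimum, all libraries in 1 fit, and leaving out each library.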

Additional observations from a re-analysis of the deposited data

Results flagged for a closer look

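The single-to-pool difference of St6galnac4 differed between knockout and control embryos by -8.15 on the log2 scale (edgeR adjusted p = 0.00889), with all 3 knockout single embryos below their pools and all 3 wild-type single embryos above theirs. By edgeR it was the 1 gene of 15878 whose difference between the genotypes passed, while DESeq2 called 544 genes. St6galnac4 lost its call in 4 of 23 alternative settings.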

How the results depend on the processing

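The 41 calls of the knockout contrast became 355 with DESeq2 (178 higher and 177 lower), 309 with no filter on low counts, 73 with limma-voom and a weight per group, 73 with all 10 libraries in 1 fit and 17 with a 2-fold minimum. DESeq2 and the fit with no filter kept all 41. Leaving out 1 library gave 12 to 35 calls, and the 12 without single embryo 4 included 10 of the 41. The 1821 control calls became 3127 with DESeq2, 3133 with limma-voom and a weight per group, 2820 with no filter and 38 with a 2-fold minimum, and 58 to 1682 with 1 library left out, the 58 without control pool 1. The median of all control genes moved by 0.22 without TMM scaling and that of the difference between contrasts by -0.16. The 1 call for that difference became 544 with DESeq2, 548 with no filter, 2 with limma-voom and a weight per group, and 0 to 2 with 1 library left out. The causes were not tested.

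The 9.4 CPM by which mean Jarid2 was higher in single embryos turned to -1.75 CPM on TMM-scaled libraries, and ran from -60.5 to 68.2 CPM with 1 library left out, -1.89 CPM without pool 2. Its log2 difference turned to 0.078 with no scaling, and ran from -0.63 to 0.37 with 1 library left out, above 0 without single embryo 4 (0.37) or pool 1 (0.15). The spread between knockout single embryos was 0.290 over genes of at least 100 CPM, against 0.368 over those of at least 10 CPM. The Y-linked sum, X-linked share and number of genes detected kept their direction in the 6 alternatives run for each. For the Y-linked sum the female label had fixed this direction. Calls of Eif2s3y, Ddx3y, Mir6236 and Ssh2 held in each alternative run, and Usp9y lost its call in 7 of 16, Tmsb10 in 5 of 18, Erdr1 in 4 of 17 and Mrps33 in 4 of 18. Fits with a group of 1 library assume that it varies like the other group.

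No paired analysis was possible for the knockout contrast because its groups share only replicate number 1. With the replicate number as a block, the control contrast gave 1973 calls and the difference between contrasts 2. Deviations of same-numbered wild-type single embryos and control pools correlated at -0.251 and -0.165, those of wild-type and knockout single embryos at -0.053 and -0.174, those of the control and knockout pools at 0.569, and those of knockout single embryo 1 and pool 1 at 0.386. Not every pair lay above 0.1, so the numbers were not taken as pairs over all groups. The main fit of the difference between contrasts therefore leaves out the likeness of same-numbered pools. Depth limits genes near 0 in single embryos, where a floor of 3 counts was used.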
